A study of Mus musculus with 10 samples.

Results

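The genes described here are the Trem2-Tyrobp signalling chain of myeloid cells: the receptor gene Trem2, the adaptor genes Tyrobp and Hcst, and the downstream genes Syk, Plcg2, Inpp5d, Vav1 and Pik3ap1. They were chosen by name as known parts of the pathway, by a rule that uses no measured value but with earlier results of these data known, and all 8 were found among the 55401 genes of the table. Expression was measured by RNA sequencing of the cerebral cortex of 10 mice, 5 with traumatic brain injury (TBI) and 5 controls, each library being a separate mouse according to the series' description of the design. The sample titles call the controls Sham and the design text calls them naive, so whether they had surgery is unsettled, and the titles' name is used. Strain, genotype, sex, age, injury model and time after injury are not given in the sources used here.

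In microglia, the resident macrophages of the brain, TREM2 at the cell surface binds lipids and lipoproteins but has no signalling tail of its own. It pairs through its membrane segment with TYROBP (DAP12), whose cytoplasmic tail carries an immunoreceptor tyrosine-based activation motif (ITAM), or with HCST (DAP10), whose tail carries a motif that recruits PI3-kinase. Once Src family kinases have phosphorylated the ITAM, the kinase SYK docks there and passes the signal to phospholipase C gamma 2, to VAV1 and to PI3-kinase, while the phosphatase encoded by Inpp5d (SHIP1) removes a phosphate from the lipid that PI3-kinase makes. TREM2 is best known in brain for its part in the microglial response to damage, and rare human variants of it change the risk of dementia.

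Injured cortex had higher levels of the receptor, its main adaptor and every downstream gene of the chain. The 7 members other than Hcst were tested, and all 7 were higher in TBI, where 3.57% of the 16316 tested genes were called higher and 4.04% in either direction (edgeR quasi-likelihood test, Benjamini-Hochberg adjusted p under 0.05). Their TBI and Sham levels, in FPKM (fragments scaled to transcript length and library total), did not overlap in any of the 7, as was so for 5.6% of the tested genes. The size of the rise differed along the chain, from 3.48-fold for Tyrobp and 3.27-fold for Trem2 to 1.65-fold for Inpp5d and 1.49-fold for Syk. The median log2 fold change of the 7 was 1.13, against -0.01 over all tested genes. The members entered the test through no single group, since each of the 7 was at or above the filter of 0.5 FPKM in all 10 libraries. In whole cortex, more cells of a type and more RNA per cell cannot be told apart, and this holds for every value that follows.

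**Figure D1:**
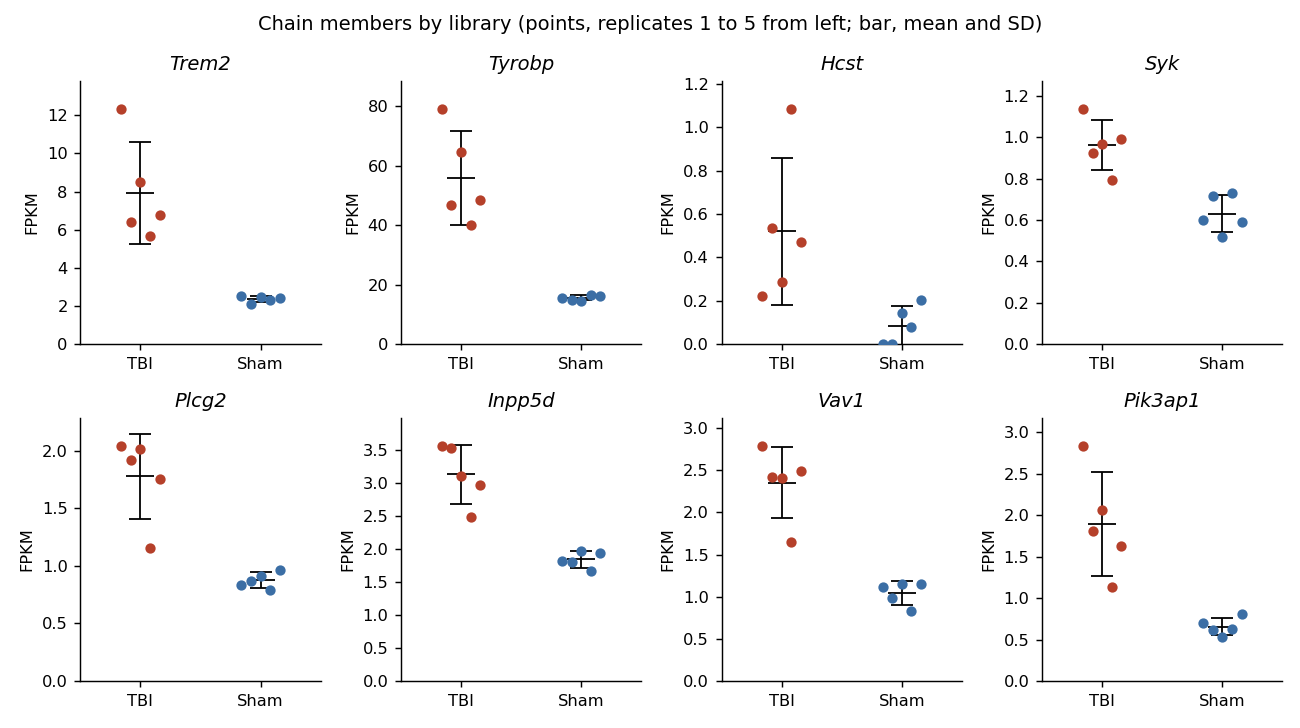
Level of each of the 8 members in every library, in FPKM on a linear axis from 0, with TBI left of Sham; points are replicates 1 to 5 from left to right, and the bar is the mean and SD of 5 libraries. In 7 genes each TBI point lies above every Sham point, while Hcst lies near the bottom of the measurable range, with 2 Sham libraries at 0.

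Trem2 (ENSMUSG00000023992, mm10 chromosome 17, 48346401 to 48354147, plus strand) encodes the receptor. Its level was 12.3, 6.41, 8.51, 5.67 and 6.77 FPKM in TBI replicates 1 to 5, against 2.50, 2.11, 2.45, 2.31 and 2.43 FPKM in Sham replicates 1 to 5. The Sham libraries lay within a narrow band and the TBI libraries spread 2.17-fold from lowest to highest, with TBI replicate 1 well above the rest. The mean was 7.93 ± 2.66 FPKM in TBI and 2.36 ± 0.155 FPKM in Sham (SD, n = 5 each), a log2 fold change of 1.71 (approximate SE 0.19, adjusted p = 7.2e-04 in edgeR).

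Tyrobp (ENSMUSG00000030579, chromosome 7, 30413760 to 30417582, plus strand) encodes the ITAM adaptor that TREM2 shares with other myeloid receptors. The stretch of its coding sequence that spells the activation motif, from codon 92 to codon 106 of 114 in the GENCODE transcript, has its 2 tyrosine codons in capitals.
Tyrobp ITAM: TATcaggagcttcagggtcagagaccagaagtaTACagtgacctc
Tyrobp measured 79.0, 46.9, 64.7, 40.03 and 48.4 FPKM in TBI replicates 1 to 5, against 15.6, 14.9, 14.6, 16.6 and 16.3 FPKM in Sham replicates 1 to 5. It had the highest level per length of the 8 members in every library and the smallest p of them, with the lowest TBI library still above every Sham library. The mean was 55.8 ± 15.8 FPKM in TBI and 15.6 ± 0.865 FPKM in Sham (log2 fold change 1.80, SE 0.17, adjusted p = 3.5e-04 in edgeR).

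Hcst (ENSMUSG00000064109, chromosome 7, 30417712 to 30419854, minus strand) encodes the smaller adaptor, best known in natural killer and T cells. The codons of its PI3-kinase recruiting motif, with the tyrosine codon in capitals, are codons 72 to 75 of 79 in its longer GENCODE coding transcript.
Hcst PI3-kinase motif: TACatcaacatg
Hcst was below the expression filter. It was at 0.224, 0.537, 0.289, 1.08 and 0.472 FPKM in TBI replicates 1 to 5, against 0, 0, 0.145, 0.0803 and 0.205 FPKM in Sham replicates 1 to 5. These levels rest on 133 estimated counts over the 5 TBI libraries and 26 over the 5 Sham libraries, or about 33 and 6 sequenced fragments. The order of the TBI libraries was the reverse of that of the other members at its ends, with replicate 4 highest and replicate 1 lowest. Every TBI library lay above every Sham library in FPKM, as in 3.46% of the 32852 genes with any count, though the estimated counts overlapped, with 10 in TBI replicate 1 and 13 in Sham replicate 5. In the edgeR fit without a filter Hcst did not pass (log2 fold change 2.44, SE 0.89, unadjusted p = 0.019, adjusted p = 0.32), where 1.74% of those 32852 genes were called higher. Tyrobp and Hcst are transcribed toward each other and their ends lie 129 bases apart. The strand setting of the counting is not given in the sources used here, and without it reads from the 2 strands cannot be told apart where transcripts meet. Neither of these genes overlaps another annotated gene, while Plcg2 overlaps a gene on the opposite strand. The part of such reads in the levels given here was not tested.

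Among the downstream genes, Syk (ENSMUSG00000021457, chromosome 13, 52583173 to 52648792) encodes the kinase that docks on the phosphorylated ITAM and had the smallest fold change. It was at 1.14, 0.923, 0.969, 0.796 and 0.992 FPKM in TBI replicates 1 to 5, against 0.601, 0.718, 0.518, 0.731 and 0.592 FPKM in Sham replicates 1 to 5. TBI replicate 4 lay close to the upper Sham libraries. The mean was 0.963 ± 0.123 FPKM in TBI and 0.632 ± 0.0905 FPKM in Sham (log2 fold change 0.57, SE 0.12, adjusted p = 0.025 in edgeR). The call was lost without TBI replicate 1, 3 or 5 and without Sham replicate 1, 3 or 5 (edgeR adjusted p = 0.0654, 0.062, 0.0605, 0.0658, 0.0573 and 0.0647 in that order).

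Plcg2 (ENSMUSG00000034330, chromosome 8, 117498291 to 117635142) encodes phospholipase C gamma 2, which cleaves a membrane lipid into calcium-releasing and kinase-activating messengers. It measured 2.04, 1.92, 2.02, 1.15 and 1.76 FPKM in TBI replicates 1 to 5, against 0.837, 0.864, 0.913, 0.794 and 0.968 FPKM in Sham replicates 1 to 5. TBI libraries 1, 2, 3 and 5 formed a tight group and replicate 4 sat between them and Sham. Mean levels were 1.78 ± 0.367 FPKM in TBI and 0.875 ± 0.0673 FPKM in Sham, a 1.98-fold rise (log2 0.98, SE 0.15, adjusted p = 0.0041 in edgeR).

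Inpp5d (ENSMUSG00000026288, chromosome 1, 87620312 to 87720507) encodes SHIP1, the inhibitor of the chain. It stood at 3.56, 3.53, 3.11, 2.48 and 2.97 FPKM in TBI replicates 1 to 5, against 1.81, 1.81, 1.97, 1.66 and 1.94 FPKM in Sham replicates 1 to 5. Its rise was one of the smaller ones but also one of the more even, with a coefficient of variation of 14.2% in TBI and 6.77% in Sham. Means were 3.13 ± 0.446 FPKM in TBI and 1.84 ± 0.125 FPKM in Sham (log2 fold change 0.73, SE 0.10, adjusted p = 0.0024 in edgeR).

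Vav1 (ENSMUSG00000034116, chromosome 17, 57279100 to 57328031) encodes an exchange factor that activates Rac GTPases and so the actin skeleton. Its values were 2.79, 2.42, 2.41, 1.65 and 2.49 FPKM in TBI replicates 1 to 5, against 1.11, 0.987, 1.15, 0.825 and 1.14 FPKM in Sham replicates 1 to 5. The groups were apart, and replicate 4 was the lowest library in each. Vav1 rose 2.19-fold, to 2.35 ± 0.424 FPKM in TBI, against 1.04 ± 0.138 FPKM in Sham (log2 1.13, SE 0.15, adjusted p = 0.0017 in edgeR).

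Pik3ap1 (ENSMUSG00000025017, chromosome 19, 41272377 to 41385102, minus strand) encodes BCAP, an adaptor that links tyrosine kinases to PI3-kinase, and had the largest rise downstream of the adaptors. It was at 2.84, 1.82, 2.07, 1.14 and 1.62 FPKM in TBI replicates 1 to 5, against 0.701, 0.618, 0.534, 0.627 and 0.804 FPKM in Sham replicates 1 to 5. The TBI libraries spread 2.49-fold, the widest range of the 7 tested members. Means were 1.897 ± 0.627 FPKM in TBI and 0.657 ± 0.101 FPKM in Sham, a 2.81-fold rise (log2 1.49, SE 0.22, adjusted p = 0.0027 in edgeR).

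**Figure D2:**
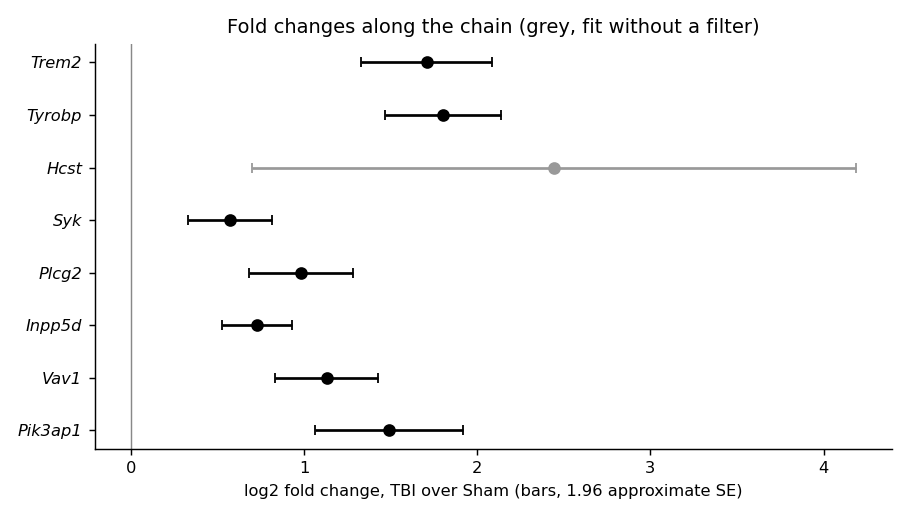
Log2 fold change of each member, TBI over Sham. Bars are nominal 95% intervals, taken as a normal multiple of the approximate SE, and are too narrow for so few libraries. Black points are from the edgeR fit of the 16316 tested genes and the grey point, Hcst, from the fit without a filter. Tyrobp and Trem2 lie at 1.80 and 1.71, Pik3ap1 at 1.49, and Syk at 0.57, while the interval of Hcst is several times as wide as any other.

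The level of the members per length fell into steps. In TBI the order of mean FPKM was Tyrobp, Trem2, Inpp5d, Vav1, Pik3ap1, Plcg2, Syk and Hcst. In Sham the order was the same except that Plcg2 stood above Pik3ap1. In TBI the ranges of Inpp5d and Vav1, of Vav1 and Pik3ap1, of Pik3ap1 and Plcg2, and of Syk and Hcst overlapped, and in Sham those of Vav1 and Plcg2, of Plcg2 and Pik3ap1, and of Pik3ap1 and Syk did. Inside single libraries some of these neighbours still kept their order. Inpp5d lay above Vav1 in 5 of 5 TBI libraries, Vav1 above Pik3ap1 in 4, Pik3ap1 above Plcg2 in 2 and Syk above Hcst in 4. Vav1 lay above Plcg2 and Plcg2 above Pik3ap1 in 5 of 5 Sham libraries, and Pik3ap1 above Syk in 3. The gap between Tyrobp and Trem2 depends on the length used. The FPKM of Trem2 were divided by about 4951 bases, against 4946 bases for all its annotated exons joined, which include a transcript with a retained intron, while its longest coding transcript has 1088 bases. Tyrobp exceeded Trem2 by 6.42 to 7.60 times in TBI libraries and by 5.96 to 7.17 times in Sham libraries in FPKM, but by only 1.58 to 1.87 times in TBI and 1.47 to 1.76 times in Sham when each was divided by its longest coding transcript. With that length, which was chosen after the data were seen, the order in TBI stayed the same, and in Sham Syk came before Plcg2 and Pik3ap1. A length divides all libraries alike, so it changes no fold change.

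Whether the members rose equally was asked of ratios within each library, which need no scaling between libraries. The level of each downstream gene relative to Tyrobp was lower in TBI than in Sham, without overlap of the groups. The log2 ratio of Syk to Tyrobp averaged -5.68 ± 0.258 in TBI and -4.43 ± 0.165 in Sham (FPKM + 0.1, SD, n = 5 each), so it fell by 1.25. The differences were -1.06 for Inpp5d, -0.87 for Plcg2, -0.70 for Vav1 and -0.44 for Pik3ap1, each, as for Syk, with p = 0.0079 in an exact two-sided permutation test, the smallest that 5 against 5 can give, and an adjusted p of 0.016 over 20 ratios. The receptor was the exception among the tested members. Trem2 to Tyrobp averaged -2.81 ± 0.0886 in TBI and -2.67 ± 0.110 in Sham, and the difference of -0.14 did not pass (exact permutation p = 0.063, adjusted p = 0.091), and it passed without TBI replicate 1 (difference -0.17, adjusted p = 0.040). Hcst to Tyrobp was -6.60 ± 1.10 in TBI and -6.54 ± 0.719 in Sham and also did not pass (exact permutation p = 0.94, adjusted p = 0.94). Both of these ratios passed with a pseudocount of 1 FPKM, with differences of -0.37 and -1.27, though that pseudocount is far above the mean level of Hcst.

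**Figure D3:**
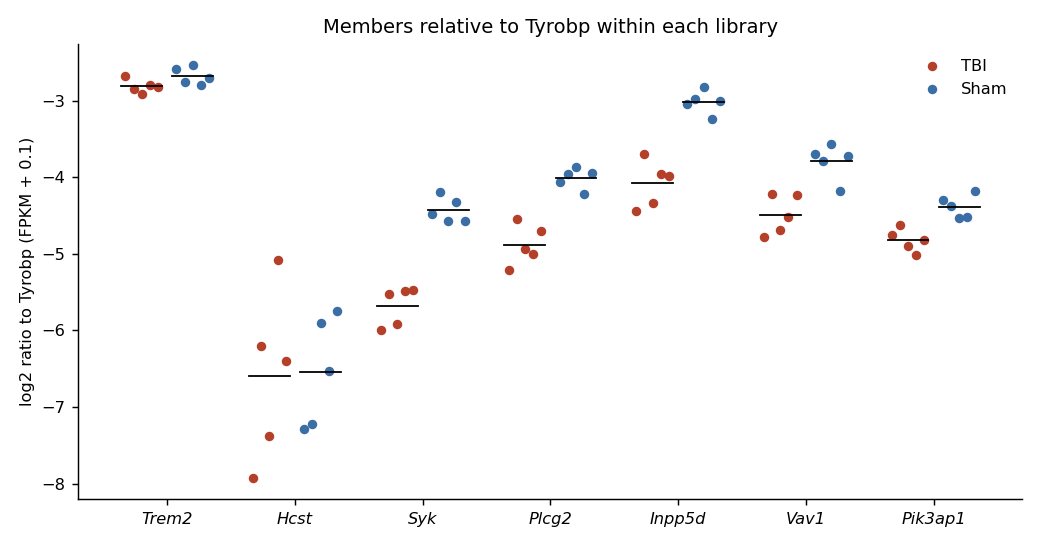
Log2 ratio of 7 members to Tyrobp within each library, from FPKM + 0.1, with TBI points left of Sham points and a line at each mean of 5. Syk, Plcg2, Inpp5d, Vav1 and Pik3ap1 sit lower in TBI in all 5 libraries than in any Sham library, while Trem2 and Hcst overlap between the groups.

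The same question was put against 13 microglia marker genes, using the mean of their log2 levels in each library. The summed level of these markers ranged from 194 to 279 FPKM in TBI and from 106 to 116 FPKM in Sham, and 9 of the 13 were called higher, while P2ry12, Siglech, Olfml3 and Selplg were not. Relative to the markers, Tyrobp was higher in TBI by 0.94 and Trem2 by 0.80 on the log2 scale, both without overlap (exact permutation p = 0.0079, adjusted p = 0.016). Syk was lower relative to them by a difference of -0.31, also without overlap (exact permutation p = 0.0079, adjusted p = 0.016). Plcg2 (0.07, adjusted p = 0.58), Inpp5d (-0.12, adjusted p = 0.21), Vav1 (0.24, adjusted p = 0.12) and Hcst (0.88, adjusted p = 0.14) did not pass in the exact permutation test. Pik3ap1 was higher by 0.50 (exact permutation p = 0.024, adjusted p = 0.037), but not with a pseudocount of 1 FPKM (0.04, adjusted p = 0.67) nor without TBI replicate 1, 2, 3 or 5 or Sham replicate 2, 3 or 4 (adjusted p = 0.061 to 0.066).

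Several members have a close relative with wider or other expression, and these were compared within libraries. Plcg2 relative to Plcg1, the widely expressed phospholipase C gamma, rose by 0.97 on the log2 scale (exact permutation p = 0.0079, adjusted p = 0.016). Plcg1 itself was at 10.5 ± 1.24 FPKM in TBI and 10.8 ± 0.958 FPKM in Sham and did not pass (edgeR adjusted p = 0.74). Vav1 rose relative to Vav3 by 0.70 (exact permutation p = 0.0079, adjusted p = 0.016) and relative to Vav2 by 0.53 (p = 0.016 in the same exact test, adjusted p = 0.029). Vav2 was among the called genes itself, at 2.64 ± 0.312 FPKM in TBI and 1.75 ± 0.157 FPKM in Sham. Syk rose by 0.69 relative to its lymphocyte relative Zap70 (exact permutation p = 0.024, adjusted p = 0.037), a result lost without TBI replicate 1, 3, 4 or 5 or Sham replicate 3 (adjusted p = 0.053 to 0.073). Zap70 itself lay below the filter, at 0.409 ± 0.106 FPKM in TBI and 0.464 ± 0.117 FPKM in Sham. Inpp5d relative to Inppl1, which encodes SHIP2, differed by 0.34 and did not pass (exact permutation p = 0.079, adjusted p = 0.11), but did without Sham replicate 1 (0.43, adjusted p = 0.026).

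Within the TBI group the tested members shared their highest and their lowest mouse. TBI replicate 1 was the highest and TBI replicate 4 the lowest of the 5 TBI libraries in all 7. Both at once held for 45.7% of the 582 genes called higher in TBI and for 7.01% of all tested genes, so many genes that rose shared the order. In TBI replicate 1 Trem2 stood 5.21-fold and Tyrobp 5.07-fold above the Sham mean, and in TBI replicate 4 the figures were 2.40-fold and 2.57-fold. Plcg2 was 2.33-fold above the Sham mean in TBI replicate 1 and 1.32-fold in TBI replicate 4. Both libraries had the lowest totals of the series, 47.6 and 51.5 megacounts (estimated counts in units of 1e6), against 62.1 to 70.5 megacounts in the other TBI libraries. The summed microglia markers were also highest in TBI replicate 1 and lowest in TBI replicate 4, at 279 and 194 FPKM. So was the sum of the monocyte and macrophage markers, at 107 and 29.2 FPKM, but most of it was Lyz2, at 103.8 and 26.2 FPKM. No other gene of that list was highest in TBI replicate 1. Of the TBI libraries, Mrc1 (0.875 FPKM) and Cd163 (0.312 FPKM) were lowest in replicate 1, while Ms4a7, Ly6c2 and Ccr2 were lowest in replicate 4. The part of depth and of these cells in the order was not tested.

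**Figure D4:**
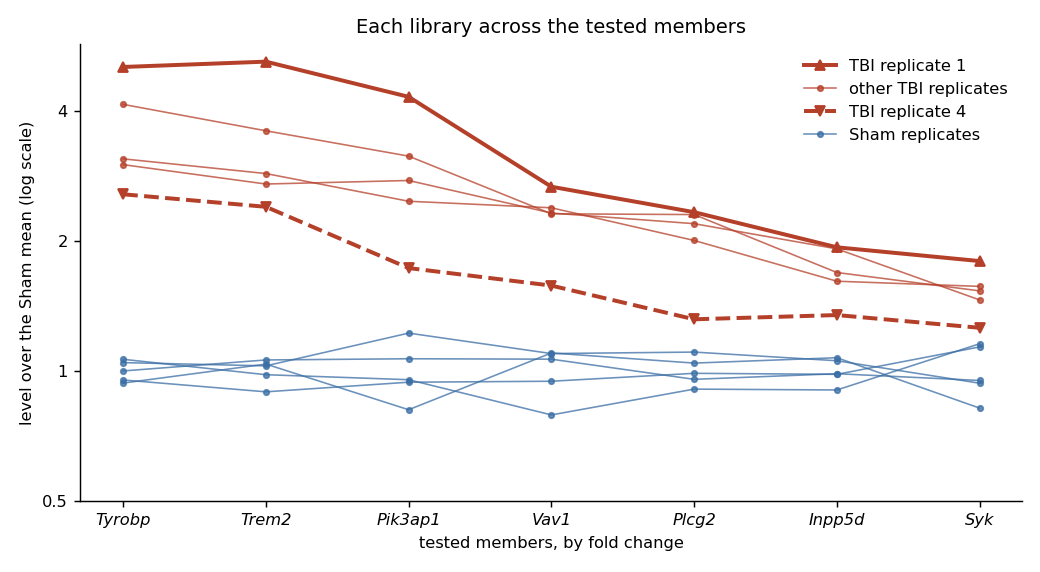
Level of each tested member in each library, divided by the mean of the 5 Sham libraries, on a log axis; each line is 1 library and genes are ordered by fold change. TBI replicate 1 (solid, triangles up) is the top line from Trem2 at 5.21 to Syk at 1.80 and TBI replicate 4 (dashed, triangles down) the bottom TBI line from 2.40 to 1.26, with every Sham line near 1.

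Across the 10 libraries, after the mean of each group was taken off, the levels of 14081 genes of at least 1 FPKM were correlated with those of Tyrobp and Trem2 as a description. The 5 genes most like Tyrobp were the interferon-induced gene Xaf1 (Pearson r = 0.981), AU020206 (0.975), the bacterial lipoprotein receptor gene Tlr2 (0.975), the chemokine gene Cxcl10 (0.974) and Serp1 (0.973). Among those most like Trem2 were the ITAM adaptor gene Fcer1g (0.968), the interferon-induced genes Ifit3b (0.958) and Oasl2 (0.958), and the growth factor gene Vegfc (0.957). Trem2 ranked 13th in likeness to Tyrobp (r = 0.955) and Pik3ap1 30th (r = 0.934), with Plcg2 at 419 (r = 0.716), Vav1 at 749 (r = 0.629) and Inpp5d at 1102 (r = 0.562). All these values share the same 10 libraries and their depths. They rest mostly on the 5 TBI libraries, where Tyrobp and Trem2 varied far more than in Sham. The coefficient of variation was 28.3% for Tyrobp and 33.5% for Trem2 in TBI, against 5.55% and 6.58% in Sham. The order of the TBI libraries that many risen genes shared therefore enters these values.

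Of the cell types that could carry these transcripts, markers of microglia and of macrophages were present and those of lymphocytes were near 0. Monocyte and macrophage markers summed to 29.2 to 107 FPKM in TBI and 6.63 to 7.87 FPKM in Sham, most of it Lyz2, the lysozyme gene, which was at 67.3 FPKM in TBI and 5.02 FPKM in Sham. Of the other 7 of that list, Ms4a7, a marker of macrophages, was at 0.342 ± 0.106 FPKM in TBI and 0.0458 ± 0.0211 FPKM in Sham (edgeR without a filter, adjusted p = 0.0022). Mrc1, the mannose receptor gene, was at 1.118 ± 0.303 FPKM in TBI and 0.725 ± 0.0640 FPKM in Sham, without overlap, and did not pass (edgeR adjusted p = 0.089). Ly6c2 (edgeR adjusted p = 0.87), Cd163 and F13a1 (0.66 and 0.43 in edgeR without a filter) overlapped between the groups and did not pass. Ccr2 and Plac8 averaged under 0.1 FPKM in both groups. Of the 3 genes of the list that were tested, only Lyz2 was called. The summed markers of microglia, of monocytes and macrophages and of neutrophils were higher in TBI (exact permutation p = 0.0079 for each, adjusted p = 0.018 over 9 lists), as were those of T and NK cells and of B cells (exact permutation p = 0.016 for each, adjusted p = 0.024). Neutrophil markers summed to 4.12 to 8.03 FPKM in TBI and 1.47 to 1.8995 FPKM in Sham, mostly Csf3r, with 5 of 8 under 0.1 FPKM in both groups and Ly6g at 0 in all 10 libraries. All 8 T and NK cell markers averaged under 0.1 FPKM in both groups, and their sum was 0.0999 to 0.368 FPKM in TBI and 0 to 0.115 FPKM in Sham, a rise of 5.11-fold that no longer passed without Sham replicate 1, 2, 4 or 5 (exact permutation adjusted p = 0.051 to 0.061). The 4 B cell markers summed to 0.394 to 0.824 FPKM in TBI and 0.0895 to 0.422 FPKM in Sham, with 2 of the 4 under 0.1 FPKM in both groups. Neuron markers summed to 982 to 1101 FPKM in TBI and 1072 to 1232 FPKM in Sham and did not pass (exact permutation p = 0.10, adjusted p = 0.12 over 9 lists), and those of oligodendrocytes did not pass either (p = 0.73 in the same exact test, adjusted p = 0.73). Astrocyte markers, at 342 to 383 FPKM in TBI and 272 to 310 FPKM in Sham, and endothelial markers, at 29.9 to 36.9 FPKM in TBI and 24.1 to 31.3 FPKM in Sham, were higher in TBI (exact permutation p = 0.0079 and 0.024, adjusted p = 0.018 and 0.031). Of their single markers 1 of 5 astrocyte genes, Aqp4, and 1 of 5 endothelial genes, Cdh5, were called, and the endothelial sum no longer passed without TBI replicate 2 or 5 or Sham replicate 1, 2, 3 or 4 (adjusted p = 0.051 to 0.061). The part of any of these cells in the rise of the chain was not tested.

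Of 74 further genes of the pathway, grouped by role, 56 were tested, 19 rose and 37 did not pass. That is 33.9% called higher, beside 3.57% of all tested genes. No gene of the 56 was called lower in edgeR, where 0.472% of all tested genes were, nor in DESeq2 or limma, and 2 were lower at an unadjusted p under 0.05, Cbl (3.21 ± 1.77 FPKM in TBI and 5.43 ± 0.840 FPKM in Sham, adjusted p = 0.29) and Prkcb. The median log2 fold change of the 56 was 0.25. Of the 19, 13 were at or above 0.5 FPKM in every Sham library and 2, Lat2 and Dock2, in none, so those 2 entered the test through TBI libraries alone.

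Upstream of the receptor, both tested ligand genes of TREM2 rose. Apoe, which encodes the main apolipoprotein of the brain, was at 577 ± 91.0 FPKM in TBI and 305 ± 70.5 FPKM in Sham (log2 fold change 0.88, edgeR adjusted p = 0.014), and Clu, which encodes clusterin, at 303 ± 14.3 FPKM in TBI and 201 ± 18.8 FPKM in Sham (0.56, adjusted p = 0.0010). The shedding protease genes Adam10 and Adam17 did not pass, with Adam10 at 10.1 ± 1.03 FPKM in TBI and 8.34 ± 0.950 FPKM in Sham. Of 9 other receptor genes whose products signal through Tyrobp or Hcst, 2 were tested and neither passed, Siglech, also in the microglia list, at 1.99 ± 0.292 FPKM in TBI and 1.60 ± 0.143 FPKM in Sham and Clec5a at 0.854 ± 0.276 FPKM in TBI and 0.419 ± 0.108 FPKM in Sham (edgeR adjusted p = 0.0504). Trem1, the relative of Trem2 on neutrophils and monocytes, had no count in any library. The second ITAM adaptor gene of myeloid cells, Fcer1g, rose to 21.5 ± 7.64 FPKM in TBI, against 6.51 ± 0.796 FPKM in Sham (1.68, adjusted p = 0.0014), a change close in size to that of Tyrobp.

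Of 6 tested Src family kinase genes 2 were called higher, Lyn among them. Lyn was at 3.65 ± 0.770 FPKM in TBI and 1.43 ± 0.0593 FPKM in Sham (log2 fold change 1.31, edgeR adjusted p = 4.3e-04), while the abundant Src was at 26.4 ± 2.38 FPKM in TBI and 25.9 ± 1.97 FPKM in Sham and did not pass. Tec, of the Tec kinases, rose at a log2 fold change of 0.96 (adjusted p = 0.037). Of 10 tested scaffold genes 4 rose. Blnk, a docking protein that SYK phosphorylates, was at 2.90 ± 0.796 FPKM in TBI and 0.954 ± 0.300 FPKM in Sham (1.56), and Lat2, Lcp2 and Sh3bp2 rose by 1.13, 1.09 and 0.96 on the log2 scale. The general adaptor gene Grb2 was at 31.6 ± 14.5 FPKM in TBI and 36.9 ± 11.4 FPKM in Sham and did not pass. The calls of Tec and Lat2 were weak. The call of Tec was lost without TBI replicate 1, 2, 3 or 5 or Sham replicate 2, 3, 4 or 5, and that of Lat2 without TBI replicate 1, 2 or 3 or Sham replicate 2, 3, 4 or 5 (edgeR adjusted p = 0.0501 to 0.0973). Both were also lost without a filter (0.056 for Tec and 0.061 for Lat2) and with the replicate numbers as a block (0.065 and 0.066), and Lat2 in limma on log2(FPKM + 1) (adjusted p = 0.061).

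On the phospholipase branch 3 of 9 tested genes rose. Card9, an adaptor that couples ITAM receptors to NF-kappaB, was at 1.77 ± 0.1001 FPKM in TBI and 0.810 ± 0.156 FPKM in Sham (log2 fold change 1.08, edgeR adjusted p = 0.0013), and the kinase gene Prkcd rose by 0.82 and the calcium-regulated factor Nfatc1 by 0.44. The Nfatc1 call was lost without TBI replicate 3 or Sham replicate 1, 2, 3 or 5 (adjusted p = 0.0507 to 0.0547), in limma on log2(FPKM + 0.1) and log2(FPKM + 1) (0.054 and 0.052), and with the replicate block (0.093). Prkcb was at 35.4 ± 2.88 FPKM in TBI and 39.6 ± 4.01 FPKM in Sham (adjusted p = 0.29). Of 10 tested PI3-kinase genes only Pik3r5, a regulatory subunit of the leukocyte gamma form, was called, at 1.119 ± 0.235 FPKM in TBI and 0.641 ± 0.0782 FPKM in Sham (0.77, adjusted p = 0.015). Akt1 was at 33.2 ± 0.624 FPKM in TBI and 31.9 ± 1.81 FPKM in Sham and did not pass. Among 6 tested phosphatases Ptpn6, which encodes the leukocyte phosphatase SHP1, rose to 3.95 ± 0.842 FPKM in TBI, against 1.17 ± 0.0503 FPKM in Sham (1.71, adjusted p = 2.7e-04). Its widely expressed relative Ptpn11 was at 20.8 ± 1.27 FPKM in TBI and 21.1 ± 0.788 FPKM in Sham and did not pass.

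Downstream of VAV1, 4 of 7 tested genes rose. They were the leukocyte GTPase gene Rac2, at 2.14 ± 0.662 FPKM in TBI and 0.672 ± 0.0717 FPKM in Sham (log2 fold change 1.63, edgeR adjusted p = 0.0012), the exchange factor gene Dock2 (1.31), the actin regulator gene Was (1.14), and Vav2 (0.56). Cdc42, with 93.8 ± 3.16 FPKM in TBI and 91.5 ± 2.69 FPKM in Sham, did not pass. The called genes were set beside their level only after the values were known. Of the 18 tested pathway genes with a Sham mean of at least 8 FPKM, 2 were called, Apoe and Clu, beside 3.57% of all tested genes called higher. How often all tested genes of that level were called was not counted, so these counts do not show that abundant genes were called less often. The other 17 called genes had Sham means of at most 6.51 FPKM. So did many genes that did not pass, Siglech, Clec5a, Adam17 and Cbl among them.

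**Figure D5:**
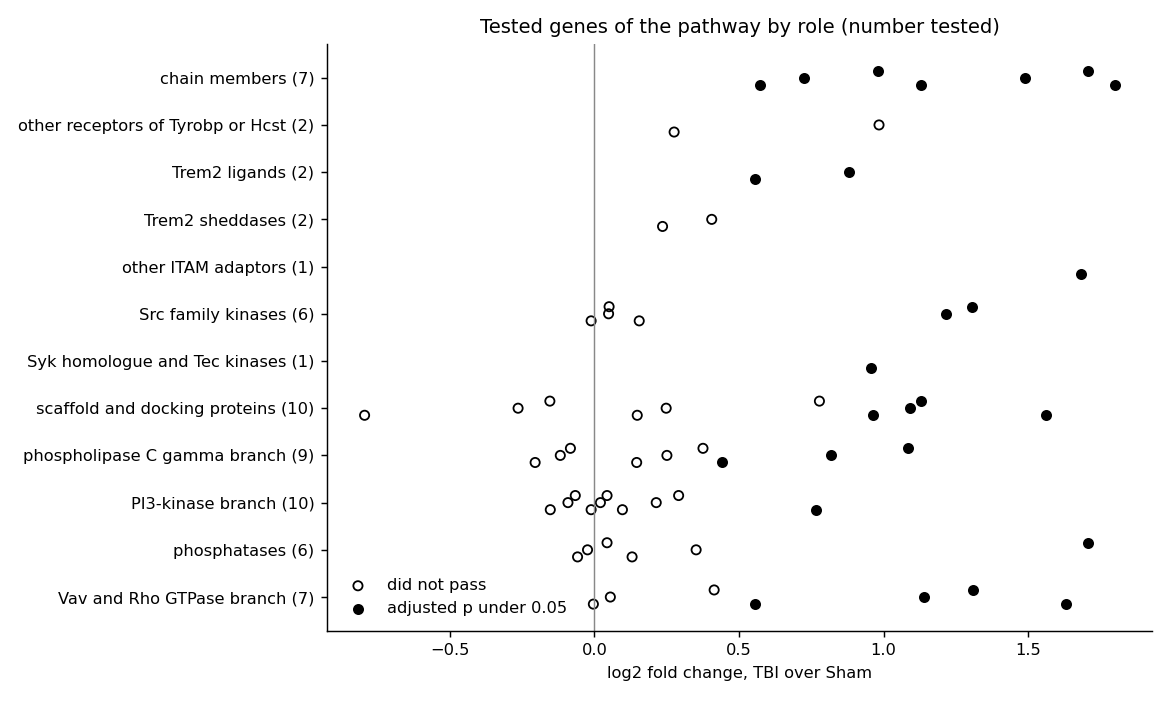
Log2 fold change, TBI over Sham, of the 7 tested members and the 56 tested further genes of the pathway in rows by role, with the number tested in brackets; filled points passed at an edgeR adjusted p under 0.05 and open points did not. All 7 members are filled and lie from 0.57 to 1.80, and each filled point of the other rows lies right of 0.

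A further 18 pathway genes lay below the filter. Of these, 17 had any count and entered the fit without a filter, where 1.74% of 32852 genes were called higher. In that fit 4 of the 17 were called higher and 0 lower, namely Cd300lb, Fgr, Pik3cg and Ptprc. These 4 are named here after their values were seen. Ptprc, which encodes CD45, the phosphatase that primes Src kinases in leukocytes, was at 0.557 ± 0.116 FPKM in TBI and 0.184 ± 0.0314 FPKM in Sham (edgeR adjusted p = 6.6e-04). Cd300lb, a receptor that pairs with TYROBP in mouse, had 240 estimated counts over the TBI libraries and 4 over the Sham libraries, all 4 in Sham replicate 1. Fgr, a Src family kinase gene of myeloid cells, had 263 estimated counts over the TBI libraries and 8 over the Sham libraries, all in Sham replicate 4.

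The promoters of the members were set beside each other as a description. Tyrobp had no promoter given. For the other 7 of the 8 members, with a pair of starts for Syk, RefSeq (GRCm38.p6) windows of 300 bases were given. These windows ran from 250 before to 50 after an annotated start. They were searched on both strands for GAGGAA and its extension GAGGAAGT, which contain the GGAA core bound by ETS factors such as PU.1, the master regulator of myeloid genes, for the AP-1 motif TGAGTCA and for the TATA box letters TATAAA. The shorter motif GAGGAA was found in 5 of the 8 windows, against 28.3% of 32851 windows of the same length. These belonged to 5 of the 7 genes, with 1 of the Syk windows among them. GAGGAAGT, which overlaps it, was found in 2 of the 8, those of Inpp5d and Vav1, against 3.2%. Neither TGAGTCA (5.2% of windows) nor TATAAA (13.6%) was found in a member window. Each GAGGAA match of a member began between 40 bases before and 4 bases after the start. The windows of Trem2, Inpp5d, Vav1 and Pik3ap1 are shown 5′ to 3′ on the strand of the gene, with GAGGAA, or TTCCTC where it lies on the other strand, in capitals. They were picked from those with a match and show where the matches lie. Positions in the windows of other genes were not counted, so whether such nearness to the start is usual for the motif is not known. Any part of these letters in the rise was not tested. A match is a description of these letters and not of a bound site.
Trem2 promoter, chr17:48346151-48346450, plus strand: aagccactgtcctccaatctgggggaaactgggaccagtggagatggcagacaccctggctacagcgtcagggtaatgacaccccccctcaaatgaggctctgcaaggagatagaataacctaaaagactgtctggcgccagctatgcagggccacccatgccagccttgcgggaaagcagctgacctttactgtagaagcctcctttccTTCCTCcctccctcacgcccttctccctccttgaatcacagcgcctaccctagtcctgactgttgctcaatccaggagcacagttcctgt
Inpp5d promoter, chr1:87620062-87620361, plus strand: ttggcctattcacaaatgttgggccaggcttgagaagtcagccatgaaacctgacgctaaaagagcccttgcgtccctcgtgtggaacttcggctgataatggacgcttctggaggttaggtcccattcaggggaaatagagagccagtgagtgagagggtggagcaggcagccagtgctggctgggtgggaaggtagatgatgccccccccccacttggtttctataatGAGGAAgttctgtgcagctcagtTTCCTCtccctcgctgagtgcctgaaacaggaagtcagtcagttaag
Vav1 promoter, chr17:57278850-57279149, plus strand: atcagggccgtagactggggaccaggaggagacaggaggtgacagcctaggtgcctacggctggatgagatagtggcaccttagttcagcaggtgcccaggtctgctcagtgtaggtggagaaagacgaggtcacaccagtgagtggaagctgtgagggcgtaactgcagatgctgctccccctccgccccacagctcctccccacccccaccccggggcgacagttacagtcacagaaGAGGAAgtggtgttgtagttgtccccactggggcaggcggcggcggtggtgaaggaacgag
Pik3ap1 promoter, chr19:41385053-41385352, minus strand: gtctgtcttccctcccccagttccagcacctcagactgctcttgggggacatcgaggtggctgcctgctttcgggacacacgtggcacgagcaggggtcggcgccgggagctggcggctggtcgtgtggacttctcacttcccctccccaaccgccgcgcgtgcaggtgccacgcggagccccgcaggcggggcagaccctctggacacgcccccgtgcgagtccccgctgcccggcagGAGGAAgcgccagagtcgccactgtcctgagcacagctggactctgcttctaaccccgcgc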

How the data were processed

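Per the labels' protocols, TRIzol was used to purify total RNA from cerebral cortex, and paired reads of 150 bases were taken on a NovaSeq instrument. The submitters' processing notes list StringTie, HISAT2, cutadapt 1.9 and the build mm10. The annotation release and counting tool are not given in the sources used here. The deposited table holds FPKM and estimated counts for each library, per the file headers. Of the deposited estimated counts from 1 to 12, 42.6% were multiples of 4 where an even spread gives 25%, so about 4 counts appear to stand for 1 fragment. Totals were 47.6 to 70.5 megacounts in TBI and 59.4 to 71.3 megacounts in Sham, and 0 sample columns were left unused. In 99.5% of 1141 single-transcript genes with at least 500 counts in every library, the count divided by FPKM and annotated length matched 1 common scale per library within 1%. That scale gave the length behind each FPKM.

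Groups and replicate numbers came from the sample titles. Genes with at least 0.5 FPKM in at least 5 libraries were tested with edgeR 4.0.16 (R 4.3.3; TMM, quasi-likelihood, group only, two-sided), with Benjamini-Hochberg adjustment over 16316 genes and a threshold of 0.05. The SE of a log2 change is its size over the square root of F. Members below the filter were read from the same fit on 32852 genes with any count. Ratios within libraries and summed markers were compared with exact two-sided permutation tests, adjusted over 20 ratios and 9 lists. Alternatives were no filter, 2 FPKM, DESeq2 size factors, DESeq2 1.42.0, limma 3.58.1 on log2(FPKM + 1) or log2(FPKM + 0.1), counts divided by 4, the replicate block, ratio pseudocounts of 0.01 and 1 FPKM, marker means, and each library left out. The fit was tested on simulated data. Members, lists and tests were chosen with earlier results of these data known. Named were all members, the called pathway genes up to 4 a list, the most abundant uncalled gene of each list, and the 5 genes most like Tyrobp and Trem2; Clec5a, Adam17, Cbl, Trem1, Plcg1 and the genes below the filter were named besides. Some genes that the rule names are not reported here.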

Additional observations from a re-analysis of the deposited data

Results flagged for a closer look

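Each group of 5 libraries was checked for a value set apart from the others, over the members, their ratios and the marker sums, 74 groups in all. Chance flags about 1 in 20 such groups, so 2 are fewer than chance gives. The log2 ratio of Vav1 to Vav2 was -0.37 in TBI replicate 4, below the other TBI libraries, which lay from -0.15 to -0.10. The log2 ratio of Syk to Zap70 was 0.58 in TBI replicate 2, below the other TBI libraries, which lay from 1.10 to 1.29.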

How the results depend on the processing

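The calls of Trem2, Tyrobp, Plcg2, Inpp5d, Vav1 and Pik3ap1 held under every alternative in which they were tested, with log2 fold changes of 1.37 to 1.82, 1.64 to 1.91, 0.56 to 1.11, 0.53 to 0.81, 0.71 to 1.25 and 0.78 to 1.64, the low ends from limma on log2(FPKM + 1) except for Tyrobp. Syk did not pass in limma on log2(FPKM + 0.1) (0.54, adjusted p = 0.051), and without 1 library its value ranged from 0.51 to 0.64. With a filter of 2 FPKM only 3 members and 7 other pathway genes were called, since fewer were tested, and 337 genes were called higher and 48 lower over all tested genes, against 582 and 77. Counts of lower genes were 229 in DESeq2, 39 and 42 in limma with 0.1 and 1 FPKM added, and 43 without a filter, and 37 to 84 without 1 library. No pairing of the samples by replicate number was clear. Deviations of same-numbered libraries correlated over 0.1 in 2 of 5 pairs, and 1 of 5 TBI libraries correlated best with its own number. So few pairs cannot exclude a pairing. With a replicate block 373 genes were higher and 29 lower, and Syk alone of the tested members did not pass (0.57, adjusted p = 0.13). Ratios and marker sums were not tested in pairs: the exact sign-flip test over 5 pairs allows no p below 0.0625.

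With a pseudocount of 1 FPKM the log2 difference of Plcg2 relative to the microglia markers turned to -0.18 (exact permutation adjusted p = 0.040) and that of Inpp5d passed (-0.20). Trem2 and Hcst to Tyrobp passed at -0.37 and -1.27, and Pik3ap1 to the markers did not at 0.043. Without 1 library the log2 differences ranged from -0.17 to -0.10 for Trem2 to Tyrobp, 0.25 to 0.43 for Inpp5d to Inppl1, 0.56 to 0.82 for Syk to Zap70, 0.15 to 0.32 for Vav1 to the markers (adjusted p = 0.024 without TBI replicate 4) and 0.41 to 0.62 for Pik3ap1 to the markers. The marker differences ranged from 0.162 to 0.229 FPKM for T and NK cells and from 3.91 to 5.74 FPKM for endothelium. The cause of these changes was not tested.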
